A study of Mus musculus with 35 samples.

Results

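The Nanog locus, as described here, is a stretch of mouse chromosome 6 that holds the neighbouring genes Apobec1, Gdf3, Dppa3, Nanog and Slc2a3. It was taken as these 5 genes with 50 kb to each side in the GRCm38 gene table, which gave 1 interval of 324.6 kb at chr6:122527792-122852363. The locus held 332 of 628867 deposited H3K27ac peaks and 143 of 274004 deposited KLF4 peaks on chromosomes 1 to 19 and X. After peaks that share a base were merged across libraries and positions found in at least 2 libraries were kept, it held 53 of 109983 H3K27ac regions and 19 of 46423 KLF4 regions. A further 31 H3K27ac and 17 KLF4 positions of the locus were found in 1 library only and were not tested.

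The study profiled mouse embryonic fibroblasts (MEF) and their reprogramming intermediates by chromatin immunoprecipitation and sequencing. The MEF were of mixed C57BL/6 and 129 background and carried a doxycycline-inducible cassette of the 4 reprogramming factors Oct4, Klf4, Sox2 and Myc (OKSM) in Col1a1 and the M2rtTA transactivator in Rosa26. H3K27ac, the acetylation of lysine 27 on histone H3, was profiled in 12 libraries: MEF (2), day 3 (3), day 6 (3), day 9 (2) and embryonic stem cells, ESC (2). KLF4 was profiled in 10 libraries, 2 each of day 3, day 6, day 9, ESC in serum with leukaemia inhibitory factor (LIF), and ESC with 2i added, that is 1 µM of a MEK inhibitor and 3 µM of a GSK3 inhibitor. Cells of days 3, 6 and 9 grew in ESC medium to which doxycycline (1 µg/ml) and ascorbic acid (50 µg/ml) were added. All medium for days and ESC contained serum and 1000 U/ml LIF. Day 3 cells were an unsorted bulk culture, whereas day 6 and day 9 cells had been sorted for the surface antigen SSEA1, so the day groups differ in sorting as well as in time. The ESC were the V6.5 line, also of mixed C57BL/6 and 129 background, on irradiated feeder cells, and KLF4 was not profiled in MEF. The KLF4 of the day libraries can come from the induced cassette as well as from the cell's own gene, and the peak lists cannot tell these apart. The study's design text calls the replicates biological, but the labels do not say that they were separate cultures, so a p-value here measures the spread between libraries, which may be technical.

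H3K27ac marks active promoters and enhancers. KLF4 is a zinc-finger transcription factor, 1 of the factors in the cassette, and a part of the network that sustains mouse ESC. Nanog is a homeodomain transcription factor at the centre of that network, Dppa3 (also called Stella) is a maternal factor that protects DNA methylation in the early embryo, Gdf3 is a ligand of the TGF-beta superfamily, Slc2a3 is the glucose transporter GLUT3, and Apobec1 is a cytidine deaminase that edits Apob mRNA. In mouse ESC the stretch around Nanog is known for strong upstream enhancers, some of which are classed as super-enhancers.

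The promoters of Nanog and Apobec1 bear on the results that follow, because KLF4 peaks overlapped the first and not the other. Both are RefSeq sequences of GRCm38.p6, 300 bases long from 250 before the annotated start (for Nanog the first), printed 5′ to 3′ on the gene's strand. The Nanog window is chr6:122707239-122707538 on the plus strand and the Apobec1 window chr6:122602395-122602694 on the minus strand. Capitals mark matches on either strand to GGGNGTGG, the core of the KLF family motif, and TTTGCATNA, a part of the joint Oct4 and Sox2 motif.
Nanog: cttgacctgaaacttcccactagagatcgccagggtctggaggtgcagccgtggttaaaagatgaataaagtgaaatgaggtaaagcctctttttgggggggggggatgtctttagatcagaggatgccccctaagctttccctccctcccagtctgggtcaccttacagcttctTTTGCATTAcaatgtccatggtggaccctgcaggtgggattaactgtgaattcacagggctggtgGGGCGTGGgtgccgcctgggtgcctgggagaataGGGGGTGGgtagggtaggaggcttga
Apobec1: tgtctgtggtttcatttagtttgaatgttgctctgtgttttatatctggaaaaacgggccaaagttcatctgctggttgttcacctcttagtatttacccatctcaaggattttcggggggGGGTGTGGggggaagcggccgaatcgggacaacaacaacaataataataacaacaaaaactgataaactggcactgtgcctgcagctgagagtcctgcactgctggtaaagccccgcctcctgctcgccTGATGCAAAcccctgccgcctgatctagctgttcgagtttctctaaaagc

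In the Nanog window GGGNGTGG matched at bases -10 and 24 counted from the start, and TTTGCATNA at base -75. The Apobec1 window held 1 match to each. Of 32619 promoters of this length, 17.7% held GGGNGTGG and 1.09% held TTTGCATNA. These motifs were chosen after the windows had been searched for GGGNGNGGC, found in 25.9% of promoters, and ATTTGCAT, found in 1.75%, which matched in neither window. A match is a run of letters and not a binding site. KLF4 peaks overlapped the Nanog window in 0 of 2 libraries on day 3 and in both libraries of day 6, day 9, ESC and ESC 2i. They overlapped the Apobec1 window in none of the 10 libraries. The promoter of Foxj2, a further gene of the locus, held no match to either motif. KLF4 peaks overlapped it in 1 of 2 day 3 libraries, both ESC 2i libraries and no other. Over all promoters, the share with a KLF4 peak ran from 14.9% to 26.9% over the 10 libraries. H3K27ac peaks overlapped the Nanog window in 0 of 2 MEF, 0 of 3 day 3, 1 of 3 day 6, 2 of 2 day 9 and 2 of 2 ESC libraries, and the Apobec1 window in 2 of 2 MEF, 3 of 3 day 3, 2 of 3 day 6, 2 of 2 day 9 and 2 of 2 ESC libraries.

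The lists of the 22 libraries differed in length, which limits what an absent peak means. Counted on chromosomes 1 to 19 and X, the H3K27ac lists had 88070 to 88347 peaks in MEF, 41471 to 50836 on day 3, 17493 to 22462 on day 6, 43974 to 45506 on day 9 and 81231 to 81971 in ESC. KLF4 lists held 21129 to 34640 peaks. Sequencing depth is not recorded in the lists, and a position without a peak is not a position without signal. The stage labels were checked against marker genes: of 10 fibroblast genes, H3K27ac peaks lay within 2.5 kb of 10 in MEF and of 4 to 5 in ESC, and of 10 pluripotency genes, of 3 to 4 in MEF and of 10 on day 9 and in ESC. On day 6 these numbers were 4 fibroblast and 2 to 4 pluripotency genes.

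**Figure D1:**
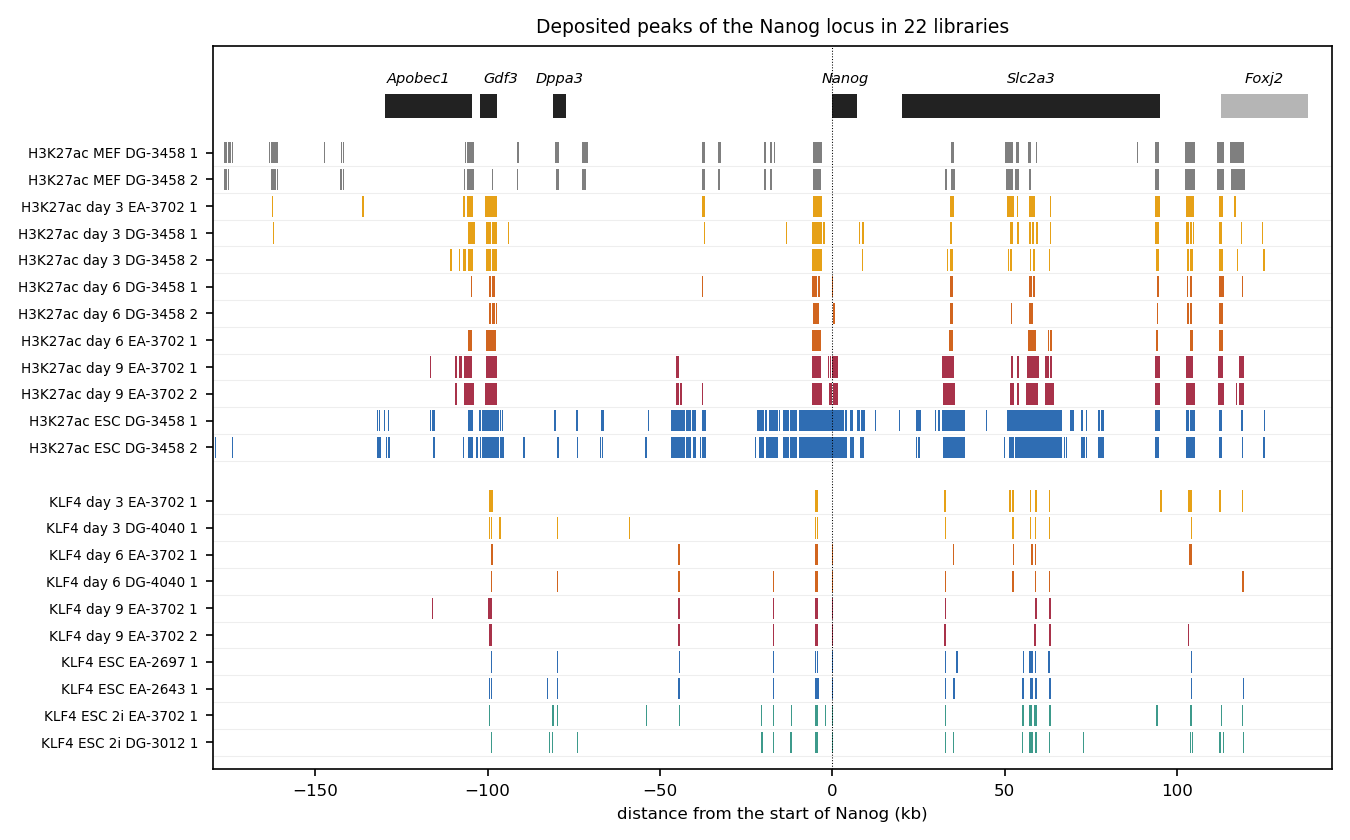
Peaks of each of the 22 libraries along the locus. The horizontal axis is the distance from the start of Nanog in kb, each row is 1 library named by stage, batch and replicate, each block is 1 deposited peak, and the bars on top are the 5 member genes (black) and Foxj2 (grey). The ESC rows of H3K27ac hold 58 and 62 peaks, and the day 6 rows 10 to 18.

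H3K27ac spread widely over the locus in ESC and held few positions in the intermediates. The covered length was 31.1 and 28.9 kb in the MEF libraries, 20.6, 17.9 and 16.0 kb on day 3, 9.38, 8.36 and 13.6 kb on day 6, 29.6 and 31.8 kb on day 9, and 79.2 and 76.0 kb in ESC. The ESC libraries thus stood apart from all others, while MEF and day 9 overlapped in covered length. Set against the total length under peaks in the same library, the locus took 0.376 and 0.346 kb per covered Mb in MEF, 0.536, 0.588 and 0.674 on day 3, 0.891, 0.908 and 0.684 on day 6, 0.604 and 0.643 on day 9, and 1.20 and 1.22 in ESC. On this scale MEF were lowest and ESC highest, day 3 and day 9 overlapped, and day 6 lay above both. The mean of the ESC libraries was 3.35 ± 0.205 times that of MEF (SD propagated from n = 2 and 2). The MEF and ESC libraries came from the same batch, EC-DG-3458.

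Of the 53 H3K27ac regions, 26 were found in both ESC libraries and no MEF library, against 28.5% of all regions, and 8 were found in both MEF libraries and no ESC library, against 38.0% of all. Another 11 were found in all 4 of these libraries, against 14.4% of all. These classes need both libraries of a stage: with MEF replicate 1 or 2 left out the MEF-only class held 1 of 45 or 1 of 46 regions, against 14.9% of all, since a region then had to be found in another stage as well. With ESC replicate 1 left out the ESC-only class held 4 of 30 regions (13.3%, against 11.1% of all), and with replicate 2 left out 6 of 30 (20.0%, against 11.3%). Counted by stage, at least 2 libraries held 21 of the 53 regions in MEF (54.5% of all regions), 12 on day 3 (24.5%), 8 on day 6 (11.7%), 11 on day 9 (28.8%) and 38 in ESC (44.2%). The day 3 and day 6 groups had 3 libraries each and the others 2. Of the 26 ESC-only regions, 3 had a peak in any library of day 3 (9.96% of all ESC-only regions), 0 on day 6 (6.59%) and 1 on day 9 (23.3%). Of the 8 MEF-only regions, 1 had a peak on day 3 (21.8% of all MEF-only regions) and none later.

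No H3K27ac region of the locus differed between the 5 stages at an adjusted p under 0.05 (exact Fisher-Freeman-Halton test on presence per library, Benjamini-Hochberg over all 109983 regions), and neither did any region elsewhere (0.0%). The smallest adjusted p was 0.0679, also for regions with p = 0.00606 in this exact test. Regions found in exactly 2 libraries could not go under the adjusted threshold. For these the absence of calls says nothing of whether they differ. At an unadjusted p under 0.05 the count was 33 of 53, against 66.9% of all regions. With batch as a block it was 3 of 53, against 11.4% of all: both day 9 libraries came from batch EC-EA-3702, and MEF and ESC from batch EC-DG-3458. The count without the block also moves with single libraries, since a region found in both libraries of 1 stage and nowhere else has an exact p of 0.0455 with all 12 libraries: it was 3 to 4 when any library of day 3 or day 6 was left out, against 8.98% to 10.3% of all regions, and 13 of 30 when either ESC library was, against 58.2% to 58.3% of all. When regions found in at least 3 libraries were tested, an alternative chosen after seeing the data, 3 of 19 regions passed, against 21.0% of all such regions, and they are described with the intergenic stretch.

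At Nanog itself, acetylation was first found 5 kb upstream of the gene and later at its start. In both MEF libraries 1 peak reached from -5.69 to -3.16 kb and from -5.72 to -3.26 kb, and no peak lay within 2.5 kb of the gene. On day 3 the upstream peaks covered 2.48, 3.20 and 2.77 kb of the stretch from -6.75 to 4.28 kb, and none came nearer to the start than -2.19 kb. On day 6 upstream peaks were found in all 3 libraries, as 1 to 3 separate intervals. A separate weak peak was found from -0.12 to 0.30 kb in 1 library of batch EC-DG-3458 and from 0.31 to 0.59 kb in the other, ranked within the top 67.3% and 88.7% of their lists by the deposited score, while the library of batch EC-EA-3702 had none. On day 9 the libraries had a separate peak at or just past the start, from -0.26 to 1.58 kb and from 0.05 to 1.74 kb. These ranked within the top 44.9% and 67.3% of their lists. Replicate 2 also had a better-ranked peak from -0.93 to -0.15 kb, within the top 56.0%. Replicate 1 also had peaks from -1.41 to -1.07 kb and from -0.77 to -0.34 kb, within the top 99.4% and 82.4%. In ESC the covered part was 10.77 and 10.79 of 11.03 kb, ranked within the top 0.36% and 0.451% of the lists. By libraries with any peak, this stretch did not differ between stages, since a peak was present in all 12 (adjusted p = 1.0, exact Fisher-Freeman-Halton test).

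Within 2.5 kb of Nanog, 0 and 0 kb were covered in MEF, 0, 0.86 and 0.39 kb on day 3, 0.42, 0.29 and 0 kb on day 6, 2.62 and 2.47 kb on day 9, and 9.5 and 8.44 kb in ESC. MEF, day 3 and day 6 overlapped, day 9 lay above all of them, and ESC above day 9. In day 3 replicate 1 of batch EC-DG-3458 this length came from a peak from -2.66 to -2.19 kb, in part within 2.5 kb, and from peaks that began at 7.71 and 8.68 kb, past the far end. In replicate 2 it came from a peak that began at 8.6 kb. None of these lay over the start.

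KLF4 was found at the upstream element in all 10 libraries and at the start of Nanog from day 6 on. The upstream KLF4 region, from -5.15 to -3.99 kb at chr6:122702339-122703495, ranked within the top 6.59% and 22.6% of the lists on day 3, 12.1% and 12.5% on day 6, 5.37% and 6.17% on day 9, 1.24% and 1.16% in ESC, and 3.21% and 13.7% in ESC 2i. H3K27ac lay within 500 bp of it in 2 of 2 MEF, 3 of 3 day 3, 3 of 3 day 6, 2 of 2 day 9 and 2 of 2 ESC libraries. The region at the start, from -0.26 to 0.17 kb at chr6:122707225-122707654, had no peak in either day 3 library. It ranked within the top 42.0% and 90.7% on day 6, 7.02% and 8.44% on day 9, 2.68% and 7.23% in ESC, and 38.1% and 4.5% in ESC 2i. Ranks come from lists of different lengths and describe each list alone.

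The pattern at the Nanog start, absent in both day 3 libraries and present in the other 8, held for this 1 of 19 KLF4 regions and for 0.519% of all KLF4 regions. It was the same within batches: in batch EC-EA-3702 the start had KLF4 in 0 of 1 library on day 3, 1 of 1 on day 6, 2 of 2 on day 9 and 1 of 1 in ESC 2i, and in batch EC-DG-4040 in 0 of 1 on day 3 and 1 of 1 on day 6. The day 6 peak of batch EC-DG-4040 was weak, with a deposited fold of 2.19 and a −log10 q-value of 0.517, so at a q-value limit of 0.01 that batch had no peak at the start on either day. The exact test over 5 groups gave p = 0.111 (adjusted p = 0.448), the smallest it can give for a region found in 8 of 10 libraries, so it could not call this pattern. Presence in all 10 libraries, as at the upstream element, was found for 3 of 19 regions, against 9.03% of all.

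**Figure D2:**
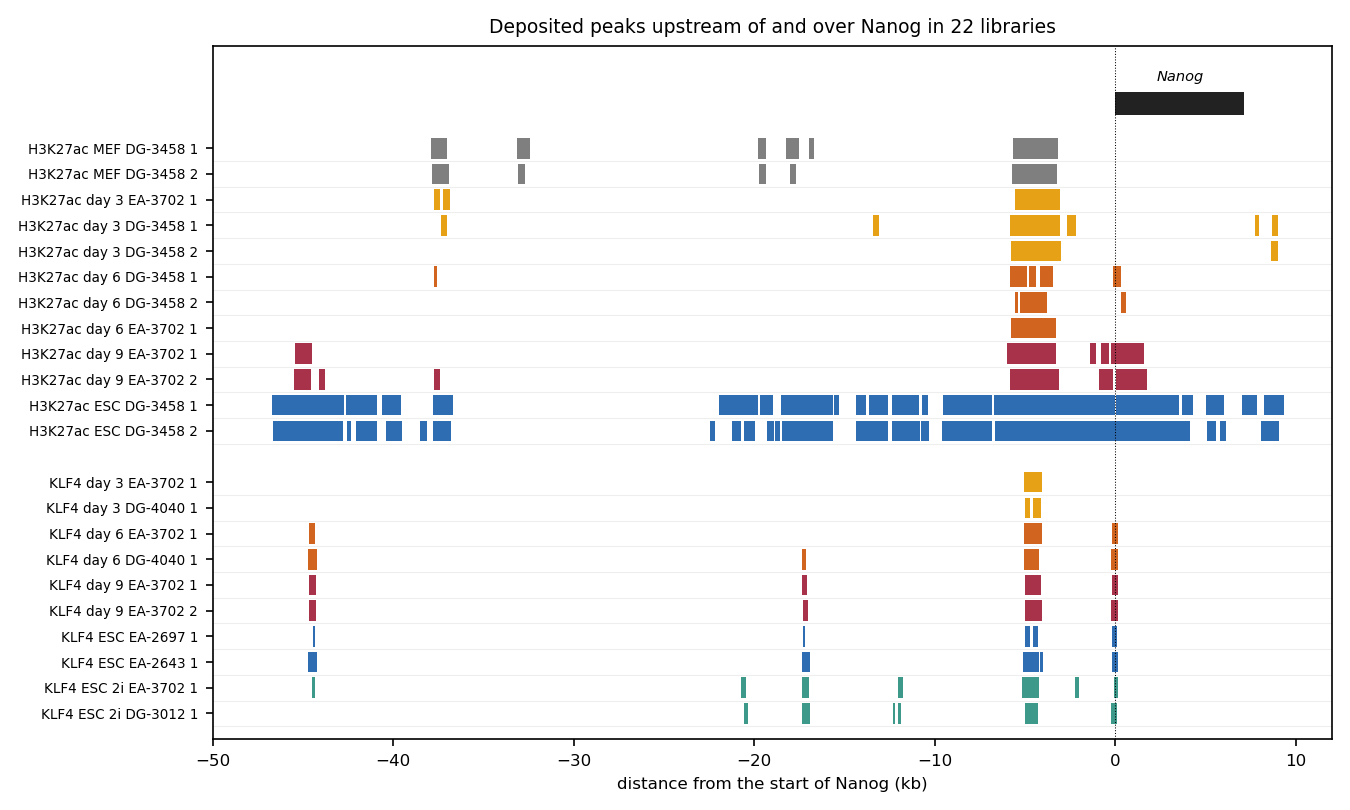
Peaks from 50 kb before to 12 kb after the start of Nanog. The axis is the distance from the start in kb, rows are the 22 libraries, and blocks are deposited peaks. The upstream element near -5 kb carries H3K27ac in all 12 and KLF4 in all 10 libraries, whereas the start carries KLF4 in 0 of 2 day 3 libraries and in the other 8.

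The 72.2 kb between Dppa3 and Nanog, leaving out 2.5 kb beside each gene, held most of the ESC-only regions that lay outside protein-coding genes. Peaks covered 7.22 and 5.62 kb in MEF, 3.13, 3.58 and 2.77 kb on day 3, 2.3, 1.7 and 2.5 kb on day 6, 3.63 and 4.28 kb on day 9, and 25.8 and 24.66 kb in ESC. The ESC libraries lay above all others, and the libraries of days 3, 6 and 9 lay below those of MEF.

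A region from -46.71 to -42.71 kb, at chr6:122660776-122664783, was the 1 ESC-only region with a day 9 peak. H3K27ac was found there in 0 of 2 MEF, 0 of 3 day 3, 0 of 3 day 6, 2 of 2 day 9 and 2 of 2 ESC libraries (p = 0.00606, adjusted p = 0.0679, exact Fisher-Freeman-Halton test). KLF4 lay inside it, from -44.75 to -44.24 kb, in 0 of 2 libraries on day 3, 2 of 2 on day 6, 2 of 2 on day 9, 2 of 2 in ESC and 1 of 2 in ESC 2i. So at this position KLF4 was listed on day 6, when no H3K27ac list held a peak. The day 9 H3K27ac peaks here ranked 15892 of 44030 and 16200 of 45564 in their lists. The day 6 H3K27ac lists held 17493 to 22462 peaks, and whether their length accounts for the missing peak was not tested. The KLF4 peak ranked within the top 26.5% and 34.8% on day 6, 16.5% and 11.8% on day 9, and 47.7% and 11.7% in ESC.

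The regions from -21.96 to -18.89 kb and from -18.50 to -15.65 kb had H3K27ac in both MEF and both ESC libraries and in none of days 3, 6 and 9 (p = 0.00606 and adjusted p = 0.0679 for each, exact Fisher-Freeman-Halton test). These and the region near -44.7 kb were the 3 that passed when regions found in at least 3 libraries were tested (batch not a term). In MEF the peaks were low in the lists, within the top 57.7% to 87.6% of the lists by the best peak of each library, and in ESC the peak over the nearer region was 2845 and 2841 bp wide and within the top 14.2% and 12.3%. Over the farther region the MEF peaks, between -19.78 and -19.36 kb, overlapped peaks of ESC replicate 1 and none of ESC replicate 2. They fall in the same region because peaks that share a base were merged in a chain. KLF4 was found near -17.1 kb in 0 libraries on day 3, 1 on day 6 and 2 each on day 9, in ESC and in ESC 2i, where it ranked within the top 21.2% and 0.6%. Near -20.5 and -11.9 kb KLF4 was found in both ESC 2i libraries and no other.

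From -14.35 to -6.82 kb, 4 further regions were ESC-only, and from -42.60 to -39.50 kb another 2. They had no KLF4 in any library except the one near -11.6 kb, with both ESC 2i libraries. A region from -37.90 to -36.67 kb was found at every stage, in 2 MEF, 2 day 3, 1 day 6, 1 day 9 and 2 ESC libraries. MEF-only regions lay from -72.66 to -70.90 kb and from -33.13 to -32.40 kb.

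Gdf3 carried the KLF4 region with the best mean rank of the locus on days 3, 6 and 9 and in serum ESC, although in the day 6 library of batch EC-EA-3702 the element upstream of Nanog ranked higher. The KLF4 region, from -99.74 to -98.46 kb at chr6:122607746-122609025, lies inside the gene and was found in all 10 libraries. It ranked within the top 0.145% and 0.88% of the lists on day 3, 13.2% and 0.801% on day 6, 0.924% and 2.58% on day 9, and 0.425% and 0.796% in serum ESC. In ESC 2i it ranked within the top 97.1% and 41.5%. The region joins neighbouring peaks: in 9 libraries the best peak covered the side nearer to Nanog, from -98.94 to -98.80 kb, whereas the 1 peak of the 2i library of batch EC-EA-3702 lay from -99.66 to -99.31 kb. The deposited fold enrichment of its best peak was 33.7 and 10.2 on day 3, 6.11 and 16.4 on day 6, 17.4 and 14.5 on day 9, 14.4 and 8.37 in serum ESC, and 2.35 and 3.40 in ESC 2i. Folds, like ranks, describe each list alone.

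H3K27ac over Gdf3 was nearly absent in MEF and present from day 3. Over the region of 4.77 kb that overlaps most of the gene, 0 and 0.35 kb were covered in MEF, 3.39, 2.92 and 3.25 kb on day 3, 1.30, 1.59 and 3.03 kb on day 6, 3.13 and 3.46 kb on day 9, and 4.76 and 4.76 kb in ESC. MEF lay below all other libraries, days 3, 6 and 9 overlapped, and ESC lay above. The ESC peak ranked within the top 0.133% and 0.314% of the lists, the best mean rank in the locus. By presence alone the region was not called (1 of 2 MEF libraries and all others, p = 0.5, adjusted p = 0.565, exact Fisher-Freeman-Halton test). Within 2.5 kb of Gdf3 both MEF libraries had a peak, which belongs to the acetylated start of Apobec1 next to it.

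Dppa3 had H3K27ac in MEF and ESC and in none of the 8 libraries in between. Within 2.5 kb of the gene 0.91 and 0.72 kb were covered in MEF, 0 kb in each of the 8 libraries of days 3, 6 and 9, and 0.58 and 0.22 kb in ESC. The peaks were low in their lists, within the top 48.1% and 65.3% in MEF and 57.9% and 83.1% in ESC. The ESC libraries had no position in common here. The peak of replicate 1 lay from -80.84 to -80.26 kb and that of replicate 2 from -79.76 to -79.55 kb. Dppa3 was the 1 of 5 genes with an unadjusted p under 0.05 (p = 0.00606, exact Fisher-Freeman-Halton test, against 15.8% of 21631 protein-coding genes), and its adjusted p was 0.144. With the better-ranked 50% of each list, or with lists of equal length, 0 of 5 genes had an unadjusted p under 0.05, against 19.2% and 12.8% of all genes. At a q-value of 0.01 or less 1 of 5 genes had such a p, against 17.8% of all genes, but it was not Dppa3. The Dppa3 peak of ESC replicate 2 fell short of that limit, with a −log10 q-value of 1.21. All day 3 and day 6 peaks within 2.5 kb of Nanog fell short too, the highest at 1.76. Nanog then had H3K27ac in the day 9 and ESC libraries only. No gene passed at an adjusted p under 0.05 (0.0%). KLF4 within 2.5 kb of Dppa3 was found in 1 library on day 3, 1 on day 6, 0 on day 9, 2 in ESC and 2 in ESC 2i. In ESC 2i both libraries had a peak from -81.36 to -81.00 kb, at the edge of the gene, that no other library had.

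Apobec1 was acetylated at its start in 11 of 12 libraries and had almost no KLF4. The region from -107.23 to -103.62 kb was found in both MEF, all 3 day 3, 2 of 3 day 6, both day 9 and both ESC libraries (adjusted p = 1.0, exact Fisher-Freeman-Halton test). Within 2.5 kb of the gene, 2.26 and 2.35 kb were covered in MEF, 2.14, 1.99 and 2.60 kb on day 3, 0.30, 0 and 1.14 kb on day 6, 3.80 and 3.26 kb on day 9, and 4.34 and 4.15 kb in ESC. Day 6 lay below all other groups and ESC above. Both ESC libraries had 4 regions that no other library had, inside the gene or within 2.5 kb of its far end, between -132.20 and -115.19 kb. KLF4 lay within 2.5 kb of Apobec1 in 1 library of day 9, at the top 99.1% of its list, and in no other.

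Slc2a3 held the widest acetylated region of the locus. From 50.17 to 66.58 kb, inside the gene, H3K27ac peaks covered 3.96 and 3.73 kb in MEF, 4.34, 2.95 and 1.86 kb on day 3, 1.40, 1.48 and 2.96 kb on day 6, 6.72 and 7.97 kb on day 9, and 16.03 and 14.87 kb in ESC. From 31.87 to 38.53 kb they covered 0.85 and 1.31 kb in MEF, 1.24, 0.40 and 0.98 kb on day 3, 0.77, 1.04 and 1.16 kb on day 6, 3.37 and 3.32 kb on day 9, and 6.64 and 6.44 kb in ESC. In both regions the order was ESC above day 9 above the rest, and MEF, day 3 and day 6 overlapped in the second. Both had a peak in all 12 libraries, so presence did not differ between stages. Over the gene with 2.5 kb to each side the covered length was 6.27 and 6.26 kb in MEF, 7.04, 4.38 and 3.76 kb on day 3, 2.72, 2.75 and 4.71 kb on day 6, 11.33 and 12.58 kb on day 9, and 29.01 and 27.18 kb in ESC. The end of the gene near 94 kb was acetylated in all 12 libraries.

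KLF4 inside Slc2a3 fell on 7 regions that behaved in different ways. The region from 58.53 to 59.27 kb was found in all 10 libraries, within the top 1.98% and 1.95% of the lists on day 3, 25.2% and 7.14% on day 6, 9.16% and 6.83% on day 9, 8.88% and 3.51% in serum ESC, and 91.9% and 9.72% in ESC 2i. Regions near 32.6, 57.5 and 63.0 kb were found in 9, 7 and 9 of 10 libraries, and the one near 35.1 kb in 3. The region from 52.16 to 52.57 kb was found in both libraries of day 3 and of day 6 and in none of day 9, ESC or ESC 2i (p = 0.0476, adjusted p = 0.448, exact Fisher-Freeman-Halton test). Its peaks ranked low, within the top 73.2% and 83.4% of the lists on day 3 and 96.3% and 57.2% on day 6. At a q-value limit of 0.01 only the day 6 peak of batch EC-DG-4040 was left, with a −log10 q-value of 3.11. The region from 54.89 to 55.47 kb was found in none of the 6 day libraries and in all 4 ESC libraries. In serum ESC it ranked within the top 60% and 35.3%, and in ESC 2i within the top 3.21% and 0.164%, the best mean rank of the locus in 2i. H3K27ac was found within 500 bp of it in both ESC libraries and in no other. It was the 1 region of 19 with an unadjusted p under 0.05 in the comparison of the day libraries with the ESC libraries (two-sided Fisher's exact test, p = 0.00476, adjusted p = 0.0781, against 16.5% of all regions).

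**Figure D3:**
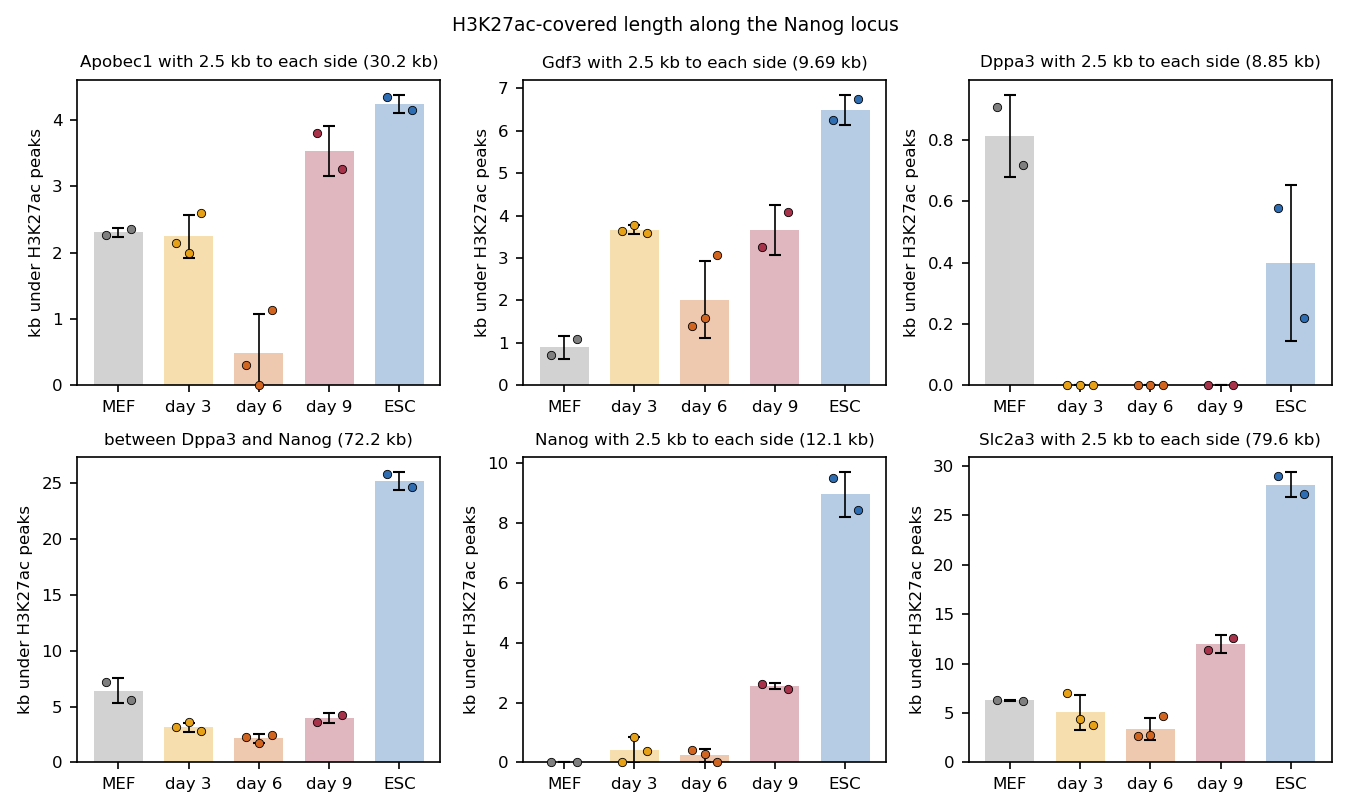
H3K27ac-covered length in 6 stretches of the locus. The vertical axis is kb under deposited peaks, points are libraries, bars are group means and error bars are the SD (n = 2 for MEF, day 9 and ESC, n = 3 for day 3 and day 6). ESC lie highest in every stretch except Dppa3, where MEF reach 0.91 kb and all 8 day libraries lie at 0.

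Over the whole locus, KLF4 peaks numbered 12 and 13 on day 3, 10 and 11 on day 6, 9 and 10 on day 9, 15 and 18 in serum ESC, and 22 and 23 in ESC 2i. Per 10000 peaks of the list these were 3.49 and 4.41, 4.44 and 4.59, 3.75 and 3.85, 7.10 and 5.20, and 9.01 and 6.88. All 4 ESC libraries lay above all 6 day libraries, and serum and 2i overlapped. Days and ESC were largely split by batch: both serum libraries and 1 of the 2i libraries came from batches with no day library, so for these batch and group cannot be told apart. Within batch EC-EA-3702 the 4 day libraries had 3.49 to 4.44 and the 2i library 9.01 peaks per 10000. The mean of the ESC libraries was 1.72 ± 0.426 times that of the day libraries (SD propagated from n = 4 and 6). At least 2 libraries held 8 of 19 regions on day 3 (38.5% of all regions), 6 on day 6 (32.1%), 8 on day 9 (41.2%), 12 in serum ESC (34.7%) and 15 in ESC 2i (32.5%).

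By class, 3 of 19 KLF4 regions were found in both libraries of day 3, day 6, day 9 and serum ESC (12.2% of all), 1 in both day 3 libraries and no serum ESC library (15.5%), and 4 in no day 3 library and both serum ESC libraries (12.4%). These 4 are the Nanog start and the regions near -44.5, -17.1 and 55.2 kb. The last was found in all 4 ESC libraries and no day library, a pattern of 2.85% of all regions. No KLF4 region differed between the 5 groups or between days and ESC at an adjusted p under 0.05 (0.0% of all in each, exact tests). Over 5 groups of 2 libraries the smallest p that the exact test can give is 0.0476, so that comparison could call nothing after adjustment and says nothing of whether regions differ. At an unadjusted p under 0.05 the 5 groups gave 2 of 19 regions, against 9.41% of all, and days against ESC 1 of 19, or 2 when either day 9 library was left out, against 19.9% and 20.0% of all. At gene level, none of the 5 genes passed for days against ESC (two-sided Fisher's exact test, 0 at an unadjusted p under 0.05, against 4.35% of genes, and 0.0% at an adjusted p). Without the day 3 or the day 6 library of batch EC-DG-4040, 1 of 5 genes had an unadjusted p under 0.05 in the same exact test, against 5.17% and 5.02% of all genes.

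**Figure D4:**
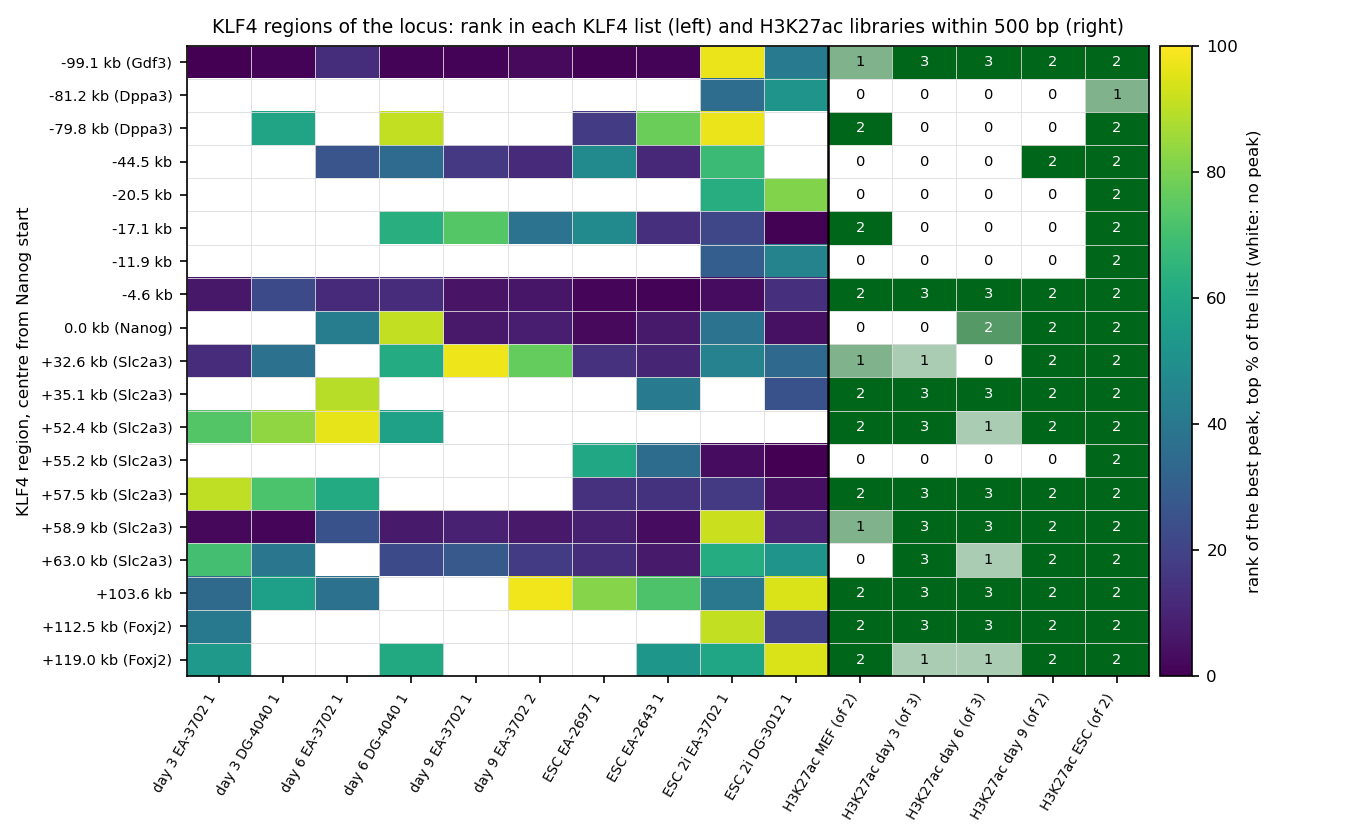
The 19 KLF4 regions, 1 row each, by the centre's distance from the Nanog start. Left columns are the 10 KLF4 libraries, coloured by the rank of the best peak as top % of its list (white, no peak). Right columns give how many H3K27ac libraries of each stage had a peak within 500 bp. The regions near -99.1, -4.6 and 58.9 kb are filled in all 10 KLF4 columns, and the Nanog start is white in the day 3 columns alone.

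The share of KLF4 regions with H3K27ac beside them was highest in ESC. Counting KLF4 regions whatever group had the KLF4, and H3K27ac in at least 2 libraries of the stage, H3K27ac lay within 500 bp of 9 of the 19 KLF4 regions in MEF (38.5% of all KLF4 regions), 9 on day 3 (41.3%), 8 on day 6 (28.8%), 13 on day 9 (57.8%) and 18 in ESC (55.6%). Conversely, KLF4 in at least 2 libraries was found in 0 of 8 MEF-only H3K27ac regions (6.73% of all such regions), 2 of 26 ESC-only regions (28.7%) and 8 of 11 regions shared by MEF and ESC (74.4%). The 2 ESC-only regions are those near -44.7 and -11.6 kb. These are counts of merged regions and not of length: the shared regions over Nanog and within Slc2a3, which held KLF4, were also wider in ESC than in MEF, as given above.

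Among 24 other pluripotency genes, chosen with earlier results of these data known, H3K27ac within 2.5 kb was found at 9 to 10 in the MEF libraries, 9 to 11 on day 3, 8 to 10 on day 6, 19 to 20 on day 9 and 24 in ESC. Over all protein-coding genes the share with H3K27ac was 67.6% in both MEF libraries, 55.1% to 60.7% on day 3, 46.6% to 52.3% on day 6, 65.0% to 65.8% on day 9 and 67.9% to 68.2% in ESC. None passed at an adjusted p under 0.05 (0.0% of all genes), and 14 had an unadjusted p under 0.05 with more ESC than MEF libraries (exact Fisher-Freeman-Halton test, against 15.8% of all genes in any direction). Esrrb and Nr5a2, both nuclear receptors of the ESC network, had H3K27ac in day 9 and ESC libraries only and KLF4 in both libraries of each group from day 6 on. Both were picked out after their values were seen. Both libraries held KLF4 at 13 of the 24 genes on day 3, 13 on day 6, 18 on day 9, 20 in serum ESC and 19 in ESC 2i, against 39.7% to 44.0% of all genes.

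None of 21622 other protein-coding genes matched Nanog in the presence of both marks within 2.5 kb in all 22 libraries. The match counted all deposited peaks, and the H3K27ac peaks near Nanog on days 3 and 6 all fell short of a q-value of 0.01. With these set aside, Nanog had H3K27ac in day 9 and ESC libraries only. Among the listed pluripotency genes, Esrrb, Nr5a2, Zfp42, Tdgf1 and Utf1 had this H3K27ac pattern with all deposited peaks counted. They were not read at the limit used for Nanog, and the share of all genes with this pattern was not counted. Tfap2c, which encodes the transcription factor AP-2 gamma, Prr15l, Izumo1, a sperm protein needed for fusion with the egg, and Cdc42ep1 matched in 19 of 22 libraries, and Mgat5b in 18. The Pearson r of the H3K27ac-covered share over the 12 libraries was 0.852, 0.82, 0.64, -0.005 and 0.995. These r are descriptions, and the libraries of a stage are not independent points.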

How the data were processed

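The deposited data were peak lists of 22 chromatin immunoprecipitation libraries on mm10 (GRCm38), 1 list per library. Per the submitters' processing notes, cutadapt 1.8.1, Bowtie2 2.2.5, deepTools 2.3.6 and MACS2 2.1.1 were used. Each peak carries the authors' score, fold enrichment (a ratio), −log10 p-value and −log10 q-value. Scores and folds were used to rank or describe peaks within a list only. The lowest −log10 p was between 2.0 and 2.09 in all deposited lists, and 35.1% to 89.7% of peaks had a q-value of 0.01 or less. The labels give more cells for each KLF4 than for each H3K27ac immunoprecipitation.

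Peaks on chromosomes 1 to 19 and X that share at least 1 base were merged over the libraries of an assay, and regions found in at least 2 libraries were tested by presence per library with exact Fisher-Freeman-Halton or two-sided Fisher tests. Values were adjusted by Benjamini-Hochberg over all regions or all protein-coding genes (Python 3.11.15, SciPy 1.17.1, pandas 2.3.3), and the scripts were tested on simulated data. A gene was given the peaks within 2.5 kb. The named genes are the 5 members, the listed pluripotency genes, and the genes whose peak presence over 22 libraries was most like that of Nanog. Other genes of the locus, apart from Foxj2, are not reported here. Members, gene lists and tests were chosen with earlier results of these data known. The alternatives were a stricter q-value, the better-ranked 50% of each list, lists of equal length, 1 kb windows, and margins of 20 and 100 kb. Regions found in any library, consensus regions of each stage, the gene alone and the gene widened by 10 kb were also used. Further ones were leaving out each library, a batch block, a replicate block and batch EC-DG-3458 alone. Regions found in at least 3 libraries were added after seeing the data. H3K27ac came from batches EC-DG-3458 and EC-EA-3702, and MEF and ESC from the former alone. The 13 input libraries, accessibility, expression and looping data were not analysed here.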

Additional observations from a re-analysis of the deposited data

How the results depend on the processing

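Of 101 alternative values of the main counts and ratios, left-out libraries aside, 81 stayed within the limits set for a change and 20 moved. Those that stayed include calls at an adjusted p that were 0 at every setting. These were 9 values for each of the KLF4 region tests, 8 for H3K27ac of genes and 5 for KLF4 of genes. The KLF4 test over 5 groups and the replicate block could call nothing, so 81 of 101 does not measure how stable the results were. Of 93 values per stage or at an unadjusted p, 48 stayed and 45 moved. The ESC-only count of H3K27ac regions, 26 of 53, was 13 of 36 at a q-value of 0.01 or less, 10 of 25 in the better-ranked 50% of each list, 6 of 14 with lists of equal length, and 69 of 127 in 1 kb windows. As a share this was 36.1%, 40.0%, 42.9% and 54.3% in the locus, against 23.3%, 27.4%, 21.6% and 26.8% of all regions. The MEF-only count, 8 of 53, was 5 of 25 in the better-ranked 50%, 3 of 14 with equal lists and 15 of 127 in 1 kb windows. It was 5 of 47 with a margin of 20 kb and 15 of 67 with 100 kb. As a share this was 20.0%, 21.4%, 11.8%, 10.6% and 22.4%, against 37.3%, 26.4%, 37.6%, 38.0% and 38.0% of all regions. The shared count, 11, was 3 with equal lists and 28 in windows. The ESC over MEF ratio of kb per covered Mb, 3.35, was 3.64 with equal lists, 4.43 with a margin of 20 kb and 2.49 with 100 kb. The KLF4 count found early and not in serum ESC was 1 of 19. It was 0 of 14 at the stricter q-value, 0 of 14 in the better-ranked 50% and 0 of 17 with equal lists. Of all KLF4 regions, 13.8%, 16.9% and 14.3% were in this class at these settings. With a margin of 100 kb it was 2, against 15.5% of all, a share that the margin does not change. The KLF4 count gained after day 3, 4 of 19 (against 12.4% of all), was 2 of 14 at the stricter q-value (against 9.51%). With regions in at least 3 libraries, chosen after seeing the data, 3 H3K27ac regions were called in place of 0. Fewer peaks, or another stretch, enter by construction.

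With each library left out in turn, the MEF-only count ran from 1 to 10, ESC-only from 4 to 27, shared from 11 to 12, the early KLF4 count from 1 to 2, the late from 4 to 5 and that kept throughout from 3 to 5. The ESC over MEF ratio of kb per covered Mb ran from 3.21 to 3.49 and the KLF4 ratio from 1.56 to 1.87. Calls stayed at 0, which says little where the exact test could call nothing with all libraries.

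Stages share more than 1 replicate number only within batch EC-DG-3458. With a replicate block there, 0 of 53 regions and 0 of 5 genes were called, and the smallest exact permutation p was 0.167, the least that 576 arrangements allow. With batch as the block, 0 regions passed adjustment and 3 of 53 had an unadjusted p under 0.05, against 11.4% of all. The depth of the libraries is unknown, so a missing peak cannot be told apart from too few reads, least of all at day 6, where the lists were shortest.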

Other observations

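On the Foxj2 side of the locus, 2 regions outside the 5 genes had H3K27ac in all 12 libraries. The region from 102.18 to 105.22 kb past the Nanog start, between Slc2a3 and Foxj2, had H3K27ac in all 12 libraries and held the best mean rank of the locus in MEF, within the top 0.411% of the lists. KLF4 was found there in 2 of 2 libraries at day 3, 1 at day 6, 1 at day 9, and both of serum ESC and ESC 2i. The region from 111.55 to 113.55 kb, over the edge of Foxj2, which encodes a forkhead transcription factor, also had H3K27ac in all 12 libraries, with KLF4 in 1 day 3 library and both ESC 2i libraries.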
